A study of Mus musculus with 16 samples.

Results

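The genes described here are 43 genes of origin licensing, the replication fork and S phase, chosen by symbol and function, among 24946 genes in each table. All 43 had a mean of at least 10 normalized reads in both tables and were tested. The libraries came from cultured neural stem cells (NSCs) of the mouse V-SVZ, the ventricular-subventricular zone, a niche that lines the lateral ventricle of the brain. Cultures were either Tsc2 mut/mut or Tsc2 wt/wt, with 4 cultures of each genotype and, from each culture, 1 library of total RNA and 1 of polyribosomal RNA, which gives 16 libraries in 4 groups. Polyribosomal RNA was taken from the heaviest sucrose gradient fractions, which hold transcripts loaded with many ribosomes. Pups were neonates that carried an RFP (tdTomato) reporter, received tamoxifen and were dissected 1 week later, and mutants had the conditional allele Tsc2 tm1.1Mjg recombined by Nestin-CRE-ERT2, a tamoxifen-dependent recombinase driven by Nestin regulatory sequence. It is not stated clearly whether pups of the wild-type group carried it. Pups with this recombinase were injected with EdU, a thymidine analogue, along with 4-hydroxytamoxifen, although the culture methods name tamoxifen alone. All cultures grew with EGF and FGF, were passaged once and had 15 min of cycloheximide before lysis. Recombination is limited to cells that had used the Nestin promoter and to their descendants, and the labels give neither sex nor litter of a culture. The p-values thus reflect only how far these particular cultures spread.

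DNA replication starts with licensing. The origin recognition complex, Cdc6 and Cdt1 load the ring-shaped MCM helicase on DNA in G1, and in S phase Cdc45 and the GINS complex join MCM to form the active CMG helicase. DNA polymerases then copy both strands on the PCNA sliding clamp, which the RFC complex loads, while RPA covers single-stranded DNA, FEN1 and LIG1 join Okazaki fragments, and CAF-1 places histones on the new DNA. Many of these genes are transcribed together before S phase under E2F factors, and proliferating progenitors of the V-SVZ are known to express them strongly.

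Normalized values added up to 65.6 to 73.7 M (total RNA) and 87.4 to 100.5 M (polyribosomal RNA) a library. The step between low values gave a sequencing depth near 24.7 to 139 M reads for total RNA and 51.7 to 266 M for polyribosomal RNA, so counting error was small for these genes. All 10 NSC markers listed were present in every library, with 7 not called in total RNA, Fabp7 lower in mutant cultures (log2 change -0.65, adjusted p = 0.027), and Sox9 (0.68, adjusted p = 0.0063) and Olig1 (0.32, adjusted p = 0.016) higher. Tsc2 itself had 5592 to 7076 normalized reads in mutant total RNA, against 6232 to 7836 in wild-type total RNA. In polyribosomal RNA it had 5956 to 9339 in mutant cultures, against 10505 to 13165 in wild-type cultures, with no overlap. The values sum the whole gene and do not isolate the recombined exons. The paper reports that its NSC subcultures lacked Tsc2, with western blots of tuberin, the Tsc2 protein. Those blots came from NSCs of its bulk RNA sequencing, which are not stated to be the cultures used here. Values of single libraries are given as normalized reads in the order of cultures 1 to 4, and gene coordinates are those of GENCODE M21 on GRCm38 (mm10).

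In total RNA, all 43 genes were lower in mutant cultures, 42 of them past an adjusted p of 0.05, where 20.7% of the 14967 genes tested were called lower and 19.7% higher, 40.3% in all. The median log2 change of the set (mutant minus wild-type) was -0.73, beside 0.01 for all genes tested, and single genes lay between -1.24 for Ung and -0.37 for Lig1, the gene that missed the threshold (adjusted p = 0.107). For 39 of 43 genes every mutant culture lay below every wild-type culture, a pattern that 20.3% of all genes tested showed, while 17.8% showed the opposite one and 0 of the 43 did. The exceptions were Cdt1, Pola2, Pole and Lig1. In RNA of whole cultures, fewer cells in S phase and less of these transcripts per cell cannot be told apart. The paper reports slightly faster self-renewal of mutant NSCs as monolayers, from cell counts in long-term cultures. Growth of the cultures sequenced here is not given. Leaving out 1 culture at a time left 33 to 43 genes called, and the median kept its sign each time.

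In polyribosomal RNA, all 43 genes were again lower in mutant cultures, and 26 passed the test, where 11.9% of the 14412 genes tested were called lower and 11.7% higher, 23.6% in all. The median log2 change was -0.54, beside 0.01 for all genes, and single genes lay between -1.21 for Pold1 and -0.14 for Rfc1. For 28 genes the mutant cultures all lay below the wild-type cultures, beside 14.6% of all genes tested, and for 15 the genotypes overlapped. Of the 43, 25 were called lower in both tables, 17 in total RNA alone and Lig1 in polyribosomal RNA alone. A gene past the threshold in 1 table and not in the other is not thereby shown to differ between them, and the difference itself was tested as a change of the ratio. The count of 26 was 17 without mutant culture 1 or mutant culture 3 and 16 without wild-type culture 1 or wild-type culture 3.

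**Figure D1:**
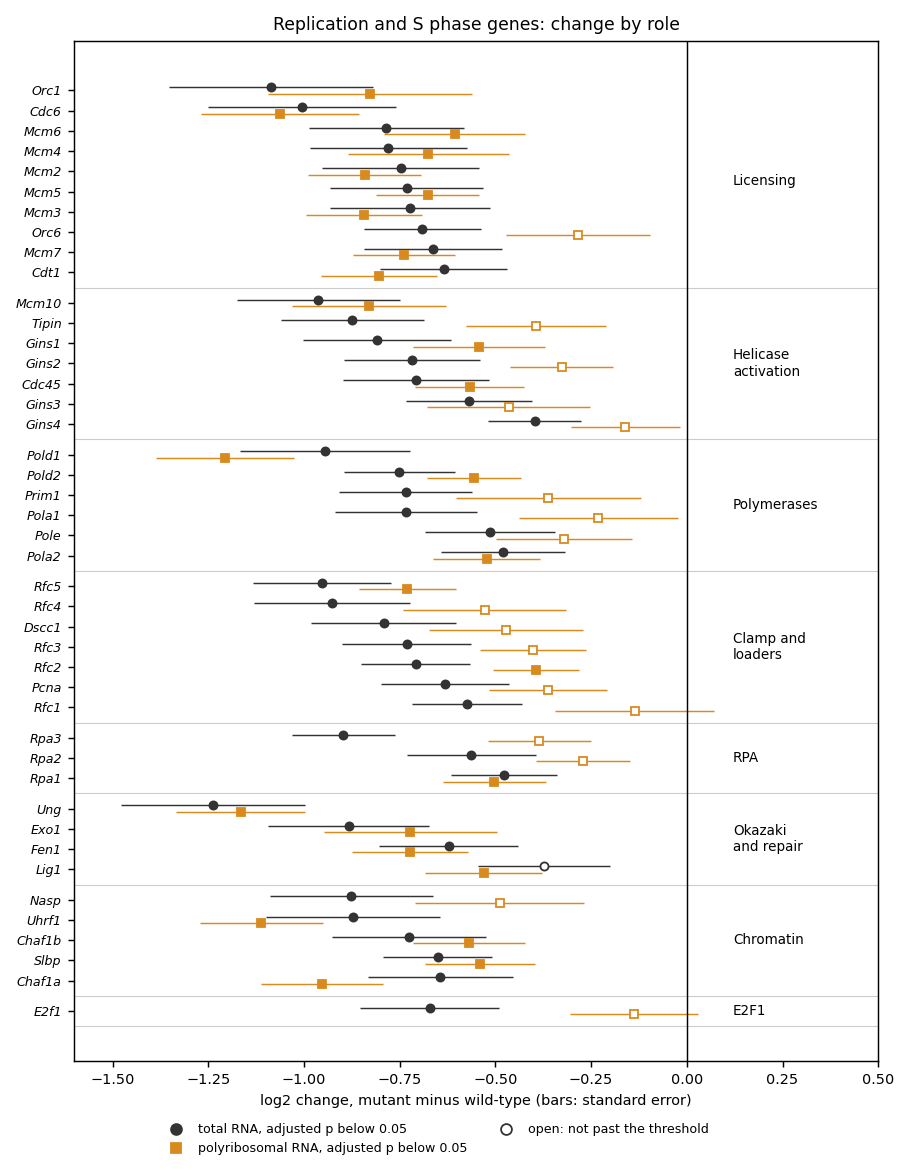
Log2 change of each of the 43 genes (x axis, mutant minus wild-type, bars are standard errors) by gene and role (y axis), in total RNA (circles) and polyribosomal RNA (squares), with filled symbols for an adjusted p below 0.05. All symbols lie left of 0, 42 of 43 circles and 26 of 43 squares are filled, and the open squares gather among the clamp loaders, GINS and primase genes.

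The spread between cultures of 1 genotype was wide and shared by the whole set. The mean log2 level of the 43 genes, relative to each gene's mean over the 8 total RNA libraries, was -0.49, 0.05, -0.89 and -0.15 in mutant cultures, against 0.45, 0.36, 0.46 and 0.20 in wild-type cultures. Mutant culture 3 was the lowest of all 8 for 42 of the 43 genes, and mutant culture 2 the highest of the mutant cultures for 41. Wild-type culture 4 lay below the wild-type mean for all 43. In polyribosomal RNA the levels were -0.41, 0.00, -0.64 and -0.11 in mutant cultures, against 0.47, 0.24, 0.31 and 0.15 in wild-type cultures. Culture 3 was there the lowest of all 8 for 37 genes, and wild-type culture 1 the highest for 31. The cultures that were low in 1 table were thus also low in the other, and no mutant culture reached the mean level of any wild-type culture in either table.

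**Figure D2:**
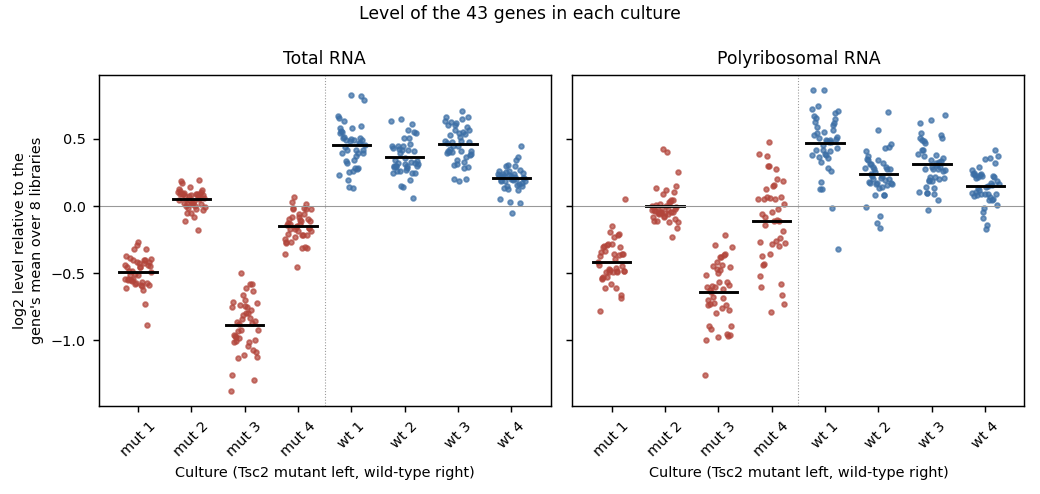
Level of each of the 43 genes (points) in each culture (x axis, Tsc2 mutant cultures left, wild-type right), as log2 of normalized reads relative to the gene's mean over the 8 libraries of its table (y axis). Black lines are the means over genes, which lie between -0.89 and 0.05 in mutant and between 0.20 and 0.46 in wild-type total RNA.

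Other measures differed between the cultures as well. Markers of microglia and macrophages summed to 4253 to 25373 normalized reads in mutant total RNA, against 3310 to 5482 in wild-type total RNA. The 2 highest sums were those of mutant cultures 2 and 4. Of the 15 markers 4 were called higher in total RNA, where 19.7% of all genes tested were. In polyribosomal RNA 0 of 13 tested were called. Without mutant cultures 2 and 4, all 43 replication genes were called lower in total RNA with a median log2 change of -1.06, and 39 in polyribosomal RNA with a median of -0.82. Over all genes, that fit called 6778 of 14943 in total RNA and 5395 of 14343 in polyribosomal RNA. Cultures 2 and 4 were also the mutant cultures with the highest mean level of the 43 genes, so leaving them out had to enlarge the difference and does not bear on the part of microglia. Oligodendrocyte markers summed to 18130 to 24930 in mutant cultures, against 8937 to 10513 in wild-type cultures, and 7 of 7 tested were called higher. Of the choroid plexus markers 2 of 4 tested were higher, and of the neuroblast markers 2 of 5 were higher and 1 lower. Of the endothelial markers 2 of 3 tested, Cdh5 and Flt1, were called higher in total RNA, and 0 of 2 tested in polyribosomal RNA. Single defining markers were at 0 in 1 total RNA library each, namely Opalin in wild-type culture 3, Kl in wild-type culture 2 and the endothelial marker Cldn5 in mutant culture 3. The part of these cells in the result was not tested.

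The Y-linked genes Ddx3y, Uty, Kdm5d and Eif2s3y were unevenly spread over the genotypes. They summed to 4775, 48.6, 16.4 and 6.57 normalized reads in the total RNA of mutant cultures, against 4203, 4967, 5802 and 258 in wild-type cultures. Among the cultures with high values, mutant culture 1 lay below wild-type cultures 1 to 3 for all 43 genes in total RNA and for 42 in polyribosomal RNA. Wild-type culture 4, with 258, stood between the high and the low values. Mutant cultures 2 to 4, with low values, all lay below it for 39 genes in total RNA and for 28 in polyribosomal RNA. A gene without overlap between the genotypes had to be lower in both of these comparisons, so the counts largely repeat that pattern. They do not bear on the part of the Y-linked level, and their share over all genes was not computed. The sets of cultures are too small for a test of their own, and none of the wild-type cultures had values as low as those of mutant cultures 2 to 4. When the fit included the level of the Y-linked genes, the median log2 changes were -0.74 in total RNA and -0.54 in polyribosomal RNA, and 2 genes (Ung and Rpa3) stayed past the threshold in total RNA and 0 in polyribosomal RNA. Over all genes, limma then called 1063 of 14967 in total RNA and 30 of 14412 in polyribosomal RNA.

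Licensing genes fell together. All 10 were called lower in total RNA and 9 in polyribosomal RNA, with median log2 changes of -0.74 and -0.77. Orc1 (chr4:108579423-108614833), the largest subunit of the origin recognition complex, changed most of them in total RNA and had 338, 527, 189 and 384 normalized reads in mutant total RNA, against 782, 761, 762 and 581 in wild-type total RNA. No mutant value reached the lowest wild-type value, and the log2 change was -1.09 ± 0.27 (SE, adjusted p = 0.011). In polyribosomal RNA Orc1 had 192, 250, 106 and 265 in mutant cultures, against 422, 311, 336 and 308 in wild-type cultures (log2 change -0.83 ± 0.27, adjusted p = 0.042). That call was lost in 11 of 19 other settings.

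Cdc6 (chr11:98907801-98923940), the ATPase that recruits MCM to the origin, had 1638, 2733, 1048 and 2085 normalized reads in mutant total RNA, against 3951, 3379, 3971 and 3000 in wild-type total RNA. The polyribosomal values were 2210, 3590, 1906 and 3158 in mutant cultures, against 6926, 5046, 5818 and 4478 in wild-type cultures. Neither set overlapped, and the log2 changes were -1.01 ± 0.25 (adjusted p = 0.011) and -1.06 ± 0.21 (adjusted p = 0.0057). Cdt1 (chr8:122568015-122573554), its partner in MCM loading, changed least of the licensing genes in total RNA, with 3729, 5140, 2944 and 3996 in mutant cultures, against 7225, 5725, 6344 and 5005 in wild-type cultures. Mutant culture 2 lay above wild-type culture 4, so the genotypes overlapped, and the log2 change was -0.64 ± 0.17 (adjusted p = 0.014). Polyribosomal Cdt1 did not overlap, at 8625, 10327, 7381 and 7804 in mutant cultures, against 17791, 14277, 15912 and 11800 in wild-type cultures (log2 change -0.80 ± 0.15, adjusted p = 0.0054).

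The 6 subunits of the MCM ring moved within a narrow range in total RNA, from -0.78 for Mcm6 and Mcm4 over -0.75 for Mcm2, -0.73 for Mcm5 and -0.72 for Mcm3 to -0.66 for Mcm7, all with standard errors of 0.18 to 0.21. These errors reflect the spread between cultures, which the subunits share, and do not measure differences between subunits. Those differences were not tested. In polyribosomal RNA the same subunits changed by -0.61 (Mcm6) to -0.84 (Mcm3 and Mcm2), all past the threshold, and only Mcm4 overlapped between genotypes. The polyribosomal calls of Mcm4 and Mcm6 were each lost in 10 of 19 other settings. Orc6, a small subunit of the origin recognition complex, changed by -0.69 in total RNA and by -0.28 in polyribosomal RNA, where it missed the threshold (adjusted p = 0.287).

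All 7 genes of helicase activation were called lower in total RNA, with a median log2 change of -0.72, and 3 of them in polyribosomal RNA (Mcm10, Cdc45 and Gins1), with a median of -0.47. Mcm10 (chr2:4989714-5012791), which helps to switch the loaded helicase on, had 2136, 3186, 1430 and 2597 normalized reads in mutant total RNA, against 4853, 4258, 4837 and 3650 in wild-type total RNA. Mutant cultures all lay below, with a log2 change of -0.96 ± 0.21 (adjusted p = 0.0077). In polyribosomal RNA the values were 2231, 3269, 1801 and 3209 in mutant cultures, against 5683, 4228, 4702 and 3721 in wild-type cultures (log2 change -0.83 ± 0.20, adjusted p = 0.014). Gins4 (chr8:23226616-23237659), a subunit of GINS, changed least in total RNA, with 2769, 3334, 2444 and 3616 in mutant total RNA, against 4314, 3824, 3967 and 3757 in wild-type total RNA (log2 change -0.40 ± 0.12, adjusted p = 0.027). Its polyribosomal values overlapped, since mutant culture 4, at 7093, lay above all others. Cdc45, the partner of MCM and GINS in the CMG helicase, changed by -0.71 in total and -0.57 in polyribosomal RNA, Gins1 by -0.81 and -0.54, and Gins3 by -0.57 and -0.47, the last without passing the test. The polyribosomal call of Gins1 was lost in 11 of 19 other settings, and the total RNA call of Gins4 in 7.

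The 6 genes of primase and the replicative polymerases were all called lower in total RNA, and Pold1, Pold2 and Pola2 also in polyribosomal RNA. Pold1 (chr7:44532746-44548849), the catalytic subunit of DNA polymerase delta, had 5341, 7529, 3304 and 5207 normalized reads in mutant total RNA, against 12610, 10099, 9016 and 8287 in wild-type total RNA (log2 change -0.95 ± 0.22, adjusted p = 0.0093). In polyribosomal RNA, where it changed most of all 43 genes, it had 14376, 20354, 10927 and 12449 in mutant cultures, against 39000, 31672, 33453 and 27329 in wild-type cultures. The mutant mean was 0.44 of the wild-type mean, and the log2 change was -1.21 ± 0.18 (adjusted p = 0.0026). Pola2 (chr19:5940542-5964202), the regulatory subunit of DNA polymerase alpha, changed least in total RNA, with 2605, 3499, 2005 and 2866 in mutant total RNA, against 4442, 3497, 3942 and 3241 in wild-type total RNA. Mutant culture 2 lay above 2 of the wild-type cultures, and the log2 change was -0.48 ± 0.16 (adjusted p = 0.038). Pold2, the second subunit of polymerase delta, changed by -0.75 in total RNA and by -0.56 in polyribosomal RNA. Pole, the catalytic subunit of polymerase epsilon, changed by -0.51 and -0.32, and Prim1, the catalytic subunit of primase, by -0.73 and -0.36, in both cases past the threshold in total RNA alone.

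The sliding clamp gene Pcna (chr2:132249162-132253314) had 24378, 33158, 18909 and 31440 normalized reads in mutant total RNA, against 39214, 39460, 47625 and 37551 in wild-type total RNA. No culture overlapped, and the log2 change was -0.63 ± 0.17 (adjusted p = 0.015). In polyribosomal RNA Pcna had 50758, 71271, 54962 and 79201 in mutant cultures, against 92933, 67956, 86261 and 78906 in wild-type cultures. Mutant cultures 2 and 4 lay within the wild-type range, and the log2 change of -0.36 ± 0.15 missed the threshold (adjusted p = 0.104). All 7 clamp and clamp loader genes were called lower in total RNA, with a median of -0.73, and 2 (Rfc2 and Rfc5) in polyribosomal RNA, with a median of -0.40. The polyribosomal call of Rfc2 was lost in 9 of 19 other settings.

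Rfc5 (chr5:117378103-117389047), a small subunit of the clamp loader, changed most of this group in total RNA, with 2749, 4022, 2024 and 3286 in mutant total RNA, against 5447, 5776, 6368 and 5169 in wild-type total RNA (log2 change -0.95 ± 0.18, adjusted p = 0.0045). Its polyribosomal values were 5365, 6798, 4824 and 6163 in mutant cultures, against 9799, 9225, 9616 and 9462 in wild-type cultures, well apart (log2 change -0.73 ± 0.13, adjusted p = 0.0041). Rfc1 (chr5:65261850-65335670), the large subunit, changed least in total RNA, with 3965, 5507, 3551 and 5034 in mutant total RNA, against 5947, 6682, 7729 and 6238 in wild-type total RNA (log2 change -0.57 ± 0.14, adjusted p = 0.012). In polyribosomal RNA it had 2553, 4334, 2354 and 3651 in mutant cultures, against 4579, 2930, 3481 and 2975 in wild-type cultures, and mutant culture 2 lay above 3 wild-type cultures (log2 change -0.14 ± 0.21, adjusted p = 0.663). Rfc2, Rfc3 and Rfc4, the other small subunits in the set, and Dscc1, a subunit of an alternative clamp loader, changed by -0.71 to -0.93 in total RNA and by -0.39 to -0.53 in polyribosomal RNA.

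The 3 subunits of RPA were called lower in total RNA, and Rpa1 also in polyribosomal RNA. Rpa3 (chr6:8255936-8259173), the smallest subunit, had 731, 1074, 814 and 983 normalized reads in mutant total RNA, against 1481, 1851, 1764 and 1568 in wild-type total RNA. Every mutant value was below every wild-type value, with a log2 change of -0.90 ± 0.14 (adjusted p = 0.0028). Rpa1 (chr11:75298166-75348324), the large subunit, changed less in total RNA, with 10941, 15380, 9657 and 13907 in mutant cultures, against 17502, 16581, 18186 and 16106 in wild-type cultures (log2 change -0.48 ± 0.14, adjusted p = 0.021). Its polyribosomal change was -0.50 ± 0.13 (adjusted p = 0.021), while Rpa2, the middle subunit, changed by -0.56 in total RNA and by -0.27 in polyribosomal RNA, without passing the test in the second.

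Of the genes for Okazaki fragments and repair at the fork, 3 of 4 were called lower in total RNA and 4 of 4 in polyribosomal RNA. Ung (chr5:114130386-114139323), the uracil-DNA glycosylase that removes uracil from DNA, changed most of all 43 genes in total RNA. It had 1590, 2966, 1198 and 2371 normalized reads in mutant cultures, against 5182, 4308, 4655 and 3999 in wild-type cultures, so the mutant mean of 2031 ± 791 was 0.45 of the wild-type mean of 4536 ± 507 (SD, n = 4 each). The log2 change was -1.24 ± 0.24 (adjusted p = 0.0049). In polyribosomal RNA Ung had 5365, 8063, 4418 and 5793 in mutant cultures, against 13922, 14024, 12484 and 11508 in wild-type cultures, again without overlap (log2 change -1.17 ± 0.17, adjusted p = 0.0022).

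Lig1 (chr7:13277283-13311433), the ligase that joins Okazaki fragments, was the gene of the set not called in total RNA, with 8578, 12236, 6897 and 10809 in mutant cultures, against 14812, 11129, 12312 and 10856 in wild-type cultures. Mutant culture 2 lay above 2 wild-type cultures, and the log2 change was -0.37 ± 0.17. In polyribosomal RNA it had 14895, 19035, 12475 and 15615 in mutant cultures, against 27312, 20492, 22561 and 19062 in wild-type cultures, where the highest mutant value fell just short of the lowest wild-type value (log2 change -0.53 ± 0.15, adjusted p = 0.027). Fen1, the flap nuclease, changed by -0.62 in total RNA and by -0.72 in polyribosomal RNA, and Exo1, an exonuclease of mismatch repair, by -0.88 and -0.72. In polyribosomal RNA the call of Exo1 was lost in 11 of 19 other settings and that of Lig1 in 8.

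The 5 genes of chromatin copying and histone supply were all called lower in total RNA, and all but Nasp in polyribosomal RNA. Uhrf1 (chr17:56303321-56323486), which reads hemimethylated DNA behind the fork, had 9067, 13219, 5825 and 11182 normalized reads in mutant total RNA, against 22005, 16024, 16899 and 14698 in wild-type total RNA (log2 change -0.87 ± 0.23, adjusted p = 0.014). In polyribosomal RNA it had 22602, 29000, 16982 and 19029 in mutant cultures, against 51508, 43501, 50456 and 40923 in wild-type cultures, and the mutant mean was 0.47 of the wild-type mean (log2 change -1.11 ± 0.16, adjusted p = 0.0022). Chaf1a (chr17:56040439-56072289), the large subunit of CAF-1, changed least in total RNA, with 5112, 7445, 3819 and 6479 in mutant cultures, against 10480, 8228, 8461 and 7690 in wild-type cultures (log2 change -0.64 ± 0.19, adjusted p = 0.022). Its polyribosomal change was -0.95 ± 0.16 (adjusted p = 0.0036), but 52.5% of its exon bases overlap Ubxn6 on the other strand, and the libraries do not keep strand. Chaf1b, the middle subunit, changed by -0.73 and -0.57, and Slbp, which binds the stem-loop of histone mRNA, by -0.65 and -0.54.

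E2f1 (chr2:154559407-154569892), the transcription factor of the set, was called lower in total RNA and not in polyribosomal RNA. It had 3198, 4173, 2220 and 4142 normalized reads in mutant total RNA, against 5769, 5230, 5482 and 4786 in wild-type total RNA, without overlap (log2 change -0.67 ± 0.18, adjusted p = 0.016). The polyribosomal values were 4259, 4876, 3321 and 3380 in mutant cultures, against 3287, 4593, 4925 and 4596 in wild-type cultures. Wild-type culture 1, the highest for E2f1 in total RNA, was the lowest of all 8 here, and the log2 change was -0.14 ± 0.17 (adjusted p = 0.575).

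**Figure D3:**
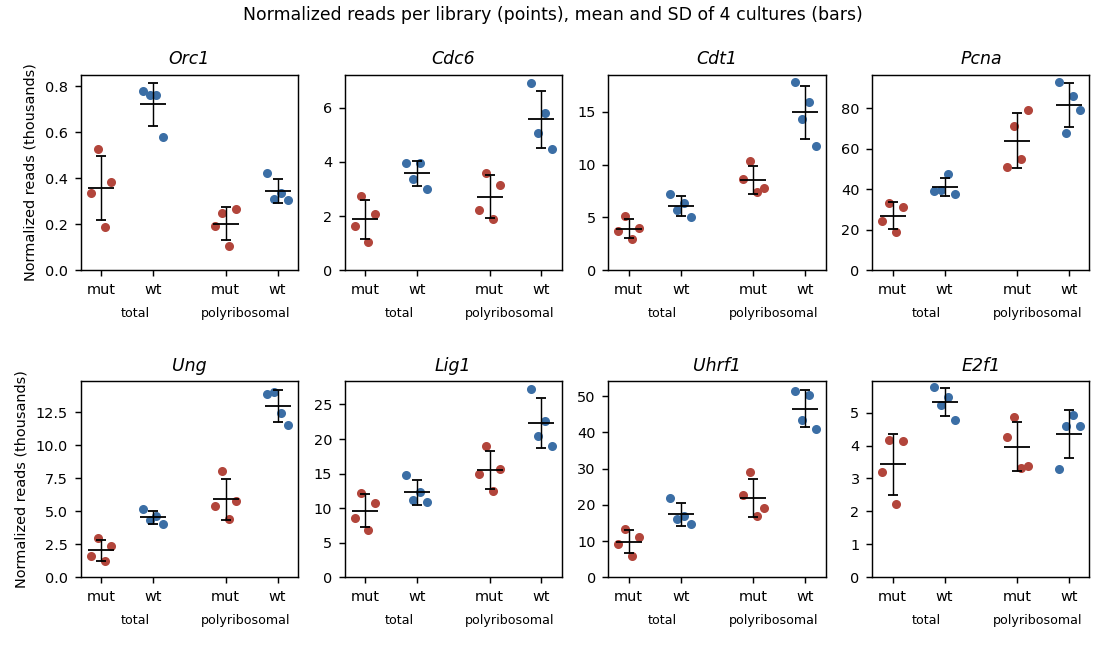
Normalized reads, scaled by 1000 (y axis, from 0), of 8 named genes in total and polyribosomal RNA (x axis, mutant left of wild-type in each pair). Points are libraries, and bars give the mean and SD of 4 cultures. Mutant and wild-type points are apart for Orc1, Cdc6, Ung and Uhrf1 in both kinds of RNA, and overlap for Lig1 and Cdt1 in total RNA and for Pcna and E2f1 in polyribosomal RNA.

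Whether the polyribosomal share of these transcripts changed was tested as the interaction of genotype and fraction, with the culture as a block. Of the 43 genes, 5 passed, all with a higher polyribosomal to total ratio in mutant cultures, and 0 passed with a lower one, where 5.07% of the 14333 genes tested were called higher and 7.89% lower by limma. At an unadjusted p below 0.05 there were 14 genes higher and 1 lower (Chaf1a), 15 of 43 in all, beside 4246 of the 14333 genes tested, a share close to that of the 43. The split of those 4246 genes by direction was not computed, so the split of the 43 has no share beside it. The median log2 change of the ratio was 0.18, beside 0.01 for all genes, and 9 genes had ratios in all mutant cultures above all wild-type cultures, which 8.16% of all genes showed. By role the median was 0.32 for the clamp group, 0.29 for RPA and 0.24 for helicase activation, and -0.0014 for licensing, with no test of the difference between roles. The 5 calls depended on the fit. Leaving out a culture gave between 0 and 11 calls, with 0 without mutant culture 1, mutant culture 3, wild-type culture 2 or wild-type culture 3, 2 without wild-type culture 4, 3 without mutant culture 4 and 11 without wild-type culture 1. Calls over all genes moved as well, to 647 of 14313 without mutant culture 1 and to 3282 of 14356 without wild-type culture 1, against 1858 with all cultures. Limma without a variance trend called 0 of the 43 and 0 of all genes.

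Gins2 (chr8:120578633-120589304), a subunit of GINS, had log2 ratios of 0.79, 0.55, 0.96 and 0.62 in mutant cultures, against 0.33, 0.34, 0.18 and 0.51 in wild-type cultures, and changed by 0.39 ± 0.13 (adjusted p = 0.049). It shares 67.3% of its exon bases with Gse1 on the other strand, so reads of both cannot be told apart. Tipin (chr9:64281581-64305424), a fork protection factor, had -0.90, -1.01, -0.69 and -0.49 in mutant cultures, against -1.08, -1.41, -1.43 and -1.10 in wild-type cultures, and changed by 0.48 ± 0.14 (adjusted p = 0.034). Rpa3 had 0.56, -0.02, 0.40 and 0.22 in mutant cultures, against -0.27, -0.14, -0.30 and -0.17 in wild-type cultures, and changed by 0.51 ± 0.14 (adjusted p = 0.026). All mutant ratios of these 3 genes lay above all wild-type ratios.

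The same held for Nasp (chr4:116601052-116627941), a chaperone of histones, with 0.42, 0.26, 0.32 and 0.54 in mutant cultures, against 0.22, -0.08, -0.11 and -0.05 in wild-type cultures, and a change of 0.39 ± 0.12 (adjusted p = 0.043). Pola1 (chrX:93304767-93632155), the catalytic subunit of DNA polymerase alpha, is X-linked and had -0.57, -0.31, -0.32 and -0.45 in mutant cultures, against -0.38, -1.23, -1.06 and -0.97 in wild-type cultures (0.50 ± 0.16, adjusted p = 0.047). Its ratios overlapped, since wild-type culture 1 lay among the mutant cultures. These 5 genes were lower in mutant total RNA, by -0.72 for Gins2, -0.87 for Tipin, -0.73 for Pola1, -0.90 for Rpa3 and -0.88 for Nasp, all past the threshold. In polyribosomal RNA the changes were -0.33 for Gins2, -0.39 for Tipin, -0.23 for Pola1, -0.39 for Rpa3 and -0.49 for Nasp, and none of these 5 passed. Because total RNA enters both values, the ratio is not independent of the total RNA change.

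In normalized reads, Gins2 had 3619, 5261, 2871 and 5215 in mutant total RNA, against 6647, 6934, 7186 and 6291 in wild-type total RNA. Its polyribosomal values were 6238, 7720, 5594 and 8010 in mutant cultures, against 8349, 8787, 8142 and 8938 in wild-type cultures. Neither kind of RNA overlapped for Gins2. Pola1 had 1902, 2972, 1614 and 2542 in mutant total RNA, against 3113, 3859, 4344 and 3395 in wild-type total RNA, without overlap. Polyribosomal Pola1 had 1284, 2401, 1295 and 1865 in mutant cultures, against 2392, 1643, 2078 and 1731 in wild-type cultures, and mutant culture 2 was the highest of all 8.

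Tipin had 2447, 3621, 1929 and 3124 in mutant total RNA, against 4188, 5718, 5559 and 4525 in wild-type total RNA. Nasp had 6491, 10321, 4611 and 8737 in mutant total RNA, against 12831, 14252, 14455 and 11598 in wild-type total RNA. Neither gene overlapped there. In polyribosomal RNA, Tipin had 1308, 1797, 1197 and 2228 in mutant cultures, against 1981, 2158, 2067 and 2116 in wild-type cultures, and mutant culture 4 was the highest of all 8. Polyribosomal Nasp had 8692, 12350, 5738 and 12679 in mutant cultures, against 14986, 13510, 13351 and 11204 in wild-type cultures, and mutant cultures 2 and 4 lay above wild-type culture 4. For Rpa3 the polyribosomal values were 1076, 1060, 1071 and 1149 in mutant cultures, against 1229, 1677, 1430 and 1389 in wild-type cultures, which did not overlap (log2 change -0.39 ± 0.13, adjusted p = 0.055).

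Across the 43 genes the ratio change was higher for shorter transcripts (Spearman coefficient -0.35 against the longest protein-coding transcript), and across 13569 genes with a length the coefficient was -0.44. All points share the same 16 libraries and genes are not independent, and the part of length in the calls was not tested. Rpa3, at 670 bases, is the shortest of the set and Exo1, at 7796 bases, the longest.

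**Figure D4:**
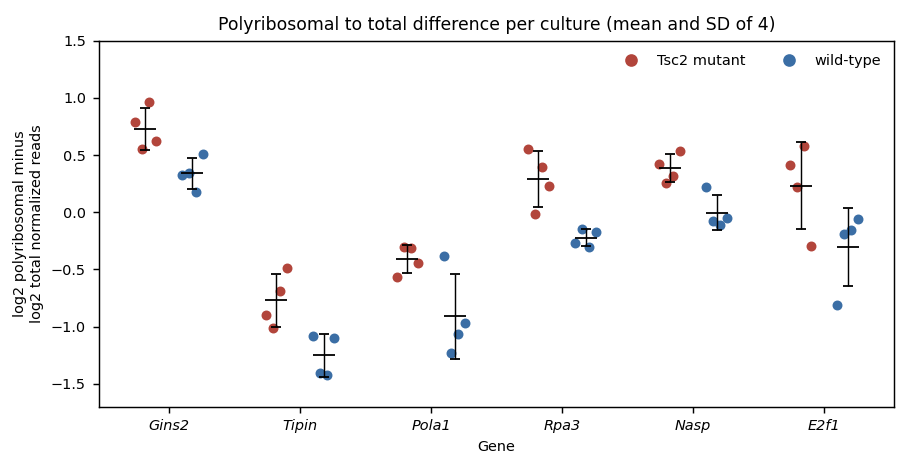
Log2 polyribosomal minus log2 total normalized reads (y axis) in each culture (points) for the 5 genes past the threshold and E2f1 (x axis), mutant left of wild-type, with mean and SD of 4 cultures. Mutant points lie above all wild-type points for Gins2, Tipin, Rpa3 and Nasp, and overlap them for Pola1 and E2f1 (E2f1 change 0.53 ± 0.19, adjusted p = 0.074).

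Levels of the 43 genes were compared per kilobase of the longest protein-coding transcript. In total RNA Pcna was the highest, with 17768 normalized reads per kilobase in mutant and 26985 in wild-type cultures. Mcm7 followed, with 5066 in mutant and 7842 in wild-type cultures. Next came Mcm2, with 4504 in mutant and 7301 in wild-type cultures, and Pold2, with 4474 and 7424. Mcm2 was the higher of them in mutant cultures and Pold2 in wild-type cultures. Orc1 was the lowest, with 119 in mutant and 239 in wild-type cultures, and Exo1 the next, with 191 in mutant and 339 in wild-type cultures. In polyribosomal RNA Pcna was again the highest, with 42192 in mutant and 53698 in wild-type cultures, and Orc1 the lowest, with 67.5 in mutant and 114 in wild-type cultures. Both tables were normalized on their own, so levels are not compared between them.

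Other genes of the pathway, listed by function but with earlier results of these data known, were mostly lower in total RNA too. Of 15 further origin factors and kinases, 11 were called lower and 0 higher in total RNA, and 3 lower and 0 higher in polyribosomal RNA. Of 23 further fork factors, 15 were lower and 0 higher in total RNA, against 7 lower and 1 higher in polyribosomal RNA. Both lists together had 68.4% called lower in total RNA and 26.3% in polyribosomal RNA, beside 20.7% and 11.9% of all genes tested. Dtl, the adaptor that marks Cdt1 for destruction, changed by -0.89 ± 0.23 in total RNA (adjusted p = 0.013). Orc3 and Orc5, further subunits of the origin recognition complex, changed by -0.47 and -0.60, and Orc2 by -0.72. Among fork factors, Pole4, an accessory subunit of polymerase epsilon, changed by -0.72 ± 0.13 (adjusted p = 0.0044), Pole2, its second subunit, by -1.07, Rbbp4, a histone-binding subunit of CAF-1, by -0.40 and Pold3 by -0.75. The range over both lists was -1.10 (Hells, a chromatin remodeler) to 0.12 (Pold4, a small subunit of polymerase delta).

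Of 12 genes of the E2F family and pocket proteins, 6 were called lower and 2 higher in total RNA, and 6 lower and 1 higher in polyribosomal RNA. Among all genes tested, 20.7% were called lower and 19.7% higher in total RNA, and 11.9% and 11.7% in polyribosomal RNA. The higher ones in total RNA were Rb1 and Rbl2, which bind and hold back E2F factors. In polyribosomal RNA Rb1 alone passed, and Rbl2 missed the threshold (adjusted p = 0.055). Rbl1, the other pocket protein listed, went the other way without passing. It changed by -0.47 in total RNA (adjusted p = 0.070) and by -0.46 in polyribosomal RNA (adjusted p = 0.190). Rb1 had 2312, 2370, 2579 and 2286 normalized reads in mutant total RNA, against 1617, 1853, 2174 and 1940 in wild-type total RNA (log2 change 0.34 ± 0.10, adjusted p = 0.024). Rbl2 had 2445, 2295, 3100 and 2458 in mutant total RNA, against 1972, 1828, 2005 and 1982 in wild-type total RNA (log2 change 0.39 ± 0.10, adjusted p = 0.014). Neither overlapped between genotypes in total RNA, and mutant culture 3, lowest for the replication genes, was the highest for both. E2f5, a repressor of the family, changed by -0.47 ± 0.10, and E2f2, an activator like E2f1, by -0.76 ± 0.19.

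Of 12 markers of cycling cells in other phases, 8 were called lower in total RNA and 5 in polyribosomal RNA, and 0 higher in either. The shares of all genes called lower were 20.7% in total RNA and 11.9% in polyribosomal RNA. Cenpa, the centromeric histone, changed by -0.84 ± 0.16 in total RNA (adjusted p = 0.0048) and Ccnb2, a mitotic cyclin, by -0.65 ± 0.15 (adjusted p = 0.0084). Mki67 and Top2a missed the threshold, with log2 changes of -0.32 and -0.43. The mean level of the 12 markers by culture was -0.43, 0.15, -0.81 and -0.13 in mutant total RNA, against 0.28, 0.30, 0.51 and 0.14 in wild-type total RNA, with mutant culture 3 lowest and mutant culture 2 above wild-type culture 4. Their levels thus ordered the mutant cultures as the replication genes did.

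Promoters were examined because the genes moved together. Windows of 300 bases (250 before to 50 after the start, RefSeq, GRCm38.p6) were found for 34 of the 43 genes. The window of E2f1, counted among these, lies wholly inside the GENCODE gene. An E2F-type motif (TTTCCCGC, TTTGGCGC, TTTCGCGC or TTTGCCGC, on either strand) was present for 13 of 34 genes, or 38.2%, beside 2.61% of the 27025 genes with a promoter and 4.43% of those tested in total RNA. It was present for 7 of 9 licensing genes (Orc1, Cdc6, Cdt1, Mcm3, Mcm5, Mcm6 and Mcm7) and for 6 of 25 others. CCAAT, on either strand, was present for 23 of 34 genes, or 67.6%, beside 41.1% of all and 42.7% of those tested. TTTGAA was present for 6, or 17.6%, beside 20.2% of all and 14.1% of those tested. The median GC content was 62.2% in the windows of the 34 genes, 52.8% in all windows and 60.7% in those of genes tested. In the member windows 1 match of a motif overlapped a match of another. The 38 other replication genes held the E2F-type motif in 13 of 34 windows. These letters describe the windows and do not show binding. The gene with the largest total RNA change in each role is shown, with E2F-type and CCAAT matches in capitals, so that the promoter of Orc1, with an E2F-type match starting 27 bases before the start site and 2 CCAAT matches, can be set beside those that hold neither.
Orc1 promoter, chr4:108579204-108579503, plus strand: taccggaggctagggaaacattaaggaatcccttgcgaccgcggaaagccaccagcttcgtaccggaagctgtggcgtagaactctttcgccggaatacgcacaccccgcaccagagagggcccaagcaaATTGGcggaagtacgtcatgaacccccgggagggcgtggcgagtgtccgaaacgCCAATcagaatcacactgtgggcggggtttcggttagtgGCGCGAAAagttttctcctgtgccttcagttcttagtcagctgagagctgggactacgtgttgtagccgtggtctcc
Mcm10 promoter, chr2:5012742-5013041, minus strand: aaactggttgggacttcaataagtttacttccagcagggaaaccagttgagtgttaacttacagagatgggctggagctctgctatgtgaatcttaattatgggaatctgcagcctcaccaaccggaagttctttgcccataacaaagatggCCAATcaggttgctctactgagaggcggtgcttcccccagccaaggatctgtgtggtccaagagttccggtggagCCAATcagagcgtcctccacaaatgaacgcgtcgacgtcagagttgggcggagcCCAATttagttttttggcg
Pold1 promoter, chr7:44548766-44549065, minus strand: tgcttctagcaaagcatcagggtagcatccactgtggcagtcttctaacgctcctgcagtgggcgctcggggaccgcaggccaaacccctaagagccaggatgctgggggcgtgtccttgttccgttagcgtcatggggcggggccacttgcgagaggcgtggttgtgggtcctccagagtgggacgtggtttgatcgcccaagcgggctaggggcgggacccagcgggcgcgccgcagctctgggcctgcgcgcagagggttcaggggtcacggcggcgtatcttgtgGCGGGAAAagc
Rfc5 promoter, chr5:117388974-117389273, minus strand: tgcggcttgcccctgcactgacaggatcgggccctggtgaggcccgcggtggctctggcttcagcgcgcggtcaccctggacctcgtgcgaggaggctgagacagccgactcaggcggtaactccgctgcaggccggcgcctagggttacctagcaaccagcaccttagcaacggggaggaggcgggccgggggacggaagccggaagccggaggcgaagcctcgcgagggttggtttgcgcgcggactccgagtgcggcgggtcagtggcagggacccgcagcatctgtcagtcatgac
Rpa3 promoter, chr6:8259092-8259391, minus strand: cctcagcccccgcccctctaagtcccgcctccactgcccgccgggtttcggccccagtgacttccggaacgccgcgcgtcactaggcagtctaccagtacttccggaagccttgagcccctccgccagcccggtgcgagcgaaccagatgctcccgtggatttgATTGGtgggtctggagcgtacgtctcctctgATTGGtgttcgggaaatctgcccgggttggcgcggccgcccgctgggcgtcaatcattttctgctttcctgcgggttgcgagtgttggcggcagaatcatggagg
Ung promoter, chr5:114130185-114130484, plus strand: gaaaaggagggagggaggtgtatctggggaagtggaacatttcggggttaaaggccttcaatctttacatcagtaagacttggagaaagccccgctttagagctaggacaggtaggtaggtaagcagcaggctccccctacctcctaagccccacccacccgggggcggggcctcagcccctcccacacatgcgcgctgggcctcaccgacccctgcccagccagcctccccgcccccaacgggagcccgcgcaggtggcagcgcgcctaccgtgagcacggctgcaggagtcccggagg
Nasp promoter, chr4:116627902-116628201, minus strand: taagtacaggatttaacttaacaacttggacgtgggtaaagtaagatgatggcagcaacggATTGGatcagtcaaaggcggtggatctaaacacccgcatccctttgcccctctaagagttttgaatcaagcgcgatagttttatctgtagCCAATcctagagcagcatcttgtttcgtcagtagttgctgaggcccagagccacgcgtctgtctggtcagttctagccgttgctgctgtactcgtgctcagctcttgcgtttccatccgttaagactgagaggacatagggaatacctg
E2f1 promoter, chr2:154569377-154569676, minus strand: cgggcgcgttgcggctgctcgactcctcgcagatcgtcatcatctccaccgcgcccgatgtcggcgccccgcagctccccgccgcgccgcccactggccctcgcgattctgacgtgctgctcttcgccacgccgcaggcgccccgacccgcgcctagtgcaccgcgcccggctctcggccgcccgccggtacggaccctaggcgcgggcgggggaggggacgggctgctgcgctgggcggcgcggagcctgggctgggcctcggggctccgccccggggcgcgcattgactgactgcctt

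The 2 windows with an E2F-type match are those of Orc1 and Pold1, and that of Pold1 lies after the start. Mcm10 held 3 CCAAT matches, and Rpa3 and Nasp 2 each. In the windows of Rfc5, Ung and E2f1 neither set of letters was found. The E2f1 window belongs to a RefSeq start inside the GENCODE gene, and all of its bases lie downstream of the outermost start at chr2:154569892. Bases before that outermost start were not searched. The lack of a match in the E2f1 window thus does not describe the promoter at that start.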

How the data were processed

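Total and polyribosomal RNA of 8 cultures was sequenced from poly(A)-selected, non-stranded libraries. The authors trimmed reads, aligned them to mm10 with STAR and divided counts by DESeq2 normalization factors, so the deposited values are a normalized signal, made separately for each table. Reads were assigned to genes by a counter and annotation not given in the sources used here. In each library 91.0 to 93.6% (total) or 73.3 to 94.1% (polyribosomal) of low values lay within 0.1 of a whole multiple of 1 read, so whole reads were not recovered and no count test was run.

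Of 24972 entries per table, 26 whose symbols had become dates were left out. Genes with a mean of at least 10 were tested with limma 3.58.1 (R 4.3.3, trend and robust moderation) on log2(value + 1), which understates changes of low genes, with Benjamini-Hochberg adjustment over all genes tested and a threshold of 0.05. The polyribosomal to total ratio was tested as the interaction of genotype and fraction with the culture as a block. The test was checked on simulated data. Values of single cultures were given for the genes with the largest and smallest total RNA change in each role, for those called in the ratio test, and for Pcna, Ung, Uhrf1, E2f1, Cdc6 and Cdt1. The 43 genes, the other lists and the tests were chosen with earlier results of these data known. Alternatives covered the pseudocount, the filter, the scaling, the moderation, a replicate block, single cultures, microglial markers and Y-linked genes. Lengths and exon overlaps came from GENCODE M21.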

Additional observations from a re-analysis of the deposited data

Results flagged for a closer look

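Of 176 groups of 4 libraries examined, 2 held a library far from the others, where chance gives about 1 in 20. Orc1 in total RNA had 581 normalized reads in wild-type culture 4, against 761 to 782 in the other wild-type cultures. Slbp in polyribosomal RNA had 12798 in wild-type culture 1, against 10071 to 10364 in the other wild-type cultures.

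For 5 genes the genotype effect differed between polyribosomal and total RNA by limma's interaction test. The differences on the log2 scale were 0.39 for Gins2 (adjusted p = 0.0493), 0.48 for Tipin (adjusted p = 0.0336), 0.50 for Pola1 (adjusted p = 0.0474), 0.51 for Rpa3 (adjusted p = 0.0258) and 0.39 for Nasp (adjusted p = 0.0434). Mutant ratios lay above all wild-type ratios for 4 of them, Pola1 being the exception.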

How the results depend on the processing

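The lower total RNA levels kept their direction in every alternative, and the pseudocounts, the stricter filter and trimmed-mean scaling gave the same 42, 26 and 5 calls. Leaving out 1 culture at a time gave 33 to 43 genes lower in total RNA, 16 to 33 in polyribosomal RNA and 0 to 11 with a higher ratio, with medians of -0.87 to -0.56, -0.63 to -0.46 and 0.13 to 0.23. Scaling to library size alone gave 16 genes lower in polyribosomal RNA. Without a filter 1 gene had a higher ratio, and without trend and robust moderation 0 had. The microglial level as a covariate gave a total RNA median of -1.04 and 2 higher ratios, and without mutant cultures 2 and 4 the medians were -1.06 and -0.82. The Y-linked level as a covariate left 2 genes lower in total RNA, 0 in polyribosomal RNA and 0 with a higher ratio. Rfc1 in polyribosomal RNA, not called in the full data, lay between -0.29 and 0.0017 with 1 culture left out, the upper value without wild-type culture 1 (adjusted p = 0.996). The cause of these changes was not tested.

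Equal culture numbers of the genotypes do not mark a shared animal, and same-numbered cultures correlated at -0.127 to 0.127. With a replicate block 40 genes were lower in total RNA, 20 in polyribosomal RNA and 1 had a higher ratio, and 3 of 8 total RNA and 2 of 8 polyribosomal libraries correlated best with their own number.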
